A study of Mus musculus with 12 samples.

Results

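The desert hedgehog pathway was followed through 8 genes: the ligand Dhh, its receptor Ptch1, the signal transducer Smo, the intracellular inhibitor Sufu, the transcription factors Gli1, Gli2 and Gli3, and the ligand-binding inhibitor Hhip. They were taken by gene symbol from the deposited transcript table, with transcripts of class code =, c, j or o (identical to, contained in, or sharing a splice junction or exon with a known transcript), and the reads of a gene's transcripts were summed. All 8 genes were found among the 24516 genes of the table, as 10 transcripts of class =. The RNA came from the testes of C57BL/6 mice, an inbred laboratory strain (WT in the labels), with no treatment named and 3 mice at each of 4 ages, postnatal months 3, 6, 12 and 18 (3M, 6M, 12M and 18M), giving 12 libraries of total RNA depleted of ribosomal RNA. Replicates are separate mice, and whether any were littermates is not stated. The libraries held 50924104 to 71803379 counted reads, and no 2 of the same age held identical values.

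Hedgehog proteins are secreted ligands that bind Ptch1. In the absence of ligand, Ptch1 keeps Smo inactive and Sufu holds the Gli proteins in the cytoplasm, where Gli2 and Gli3 are processed toward repressors. Ligand binding releases Smo, the Gli proteins activate their targets, and Gli1, Ptch1 and Hhip are themselves target genes, so that their RNA is widely used as a readout of the pathway. In the testis, Sertoli cells make Dhh, and Leydig and peritubular cells respond to it. In RNA from whole tissue, fewer cells of a type and less RNA per cell cannot be told apart.

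Measured per length of transcript, as fragments scaled by transcript length and library depth (FPKM), the 8 genes spread from 40.5 ± 2.04 FPKM (SD, n = 12) for Sufu to 0.0718 ± 0.0113 FPKM for Hhip. Dhh was at 2.98 ± 0.317 FPKM, Ptch1 at 0.957 ± 0.194, Smo at 0.732 ± 0.140 and Gli1 at 0.492 ± 0.0953. Gli2 (0.230 ± 0.0414 FPKM) and Gli3 (0.218 ± 0.0337 FPKM) were lower again. Among all genes of the table, these mean FPKM values put Sufu at the 91.3rd percentile, Dhh at the 58.2nd and Hhip at the 23.4th. In this order, 4 of 7 neighbouring steps were wider than the spread over the 12 libraries, namely those from Sufu to Dhh, from Dhh to Ptch1, from Gli1 to Gli2 and from Gli3 to Hhip. The FPKM of Ptch1 overlapped that of Smo across libraries, although Ptch1 was the higher of the pair in 12 of 12. Smo was above Gli1 in 11 of 12 libraries with overlapping ranges, and Gli2 and Gli3 could not be ordered, with Gli2 higher in 7 of 12.

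**Figure D1:**
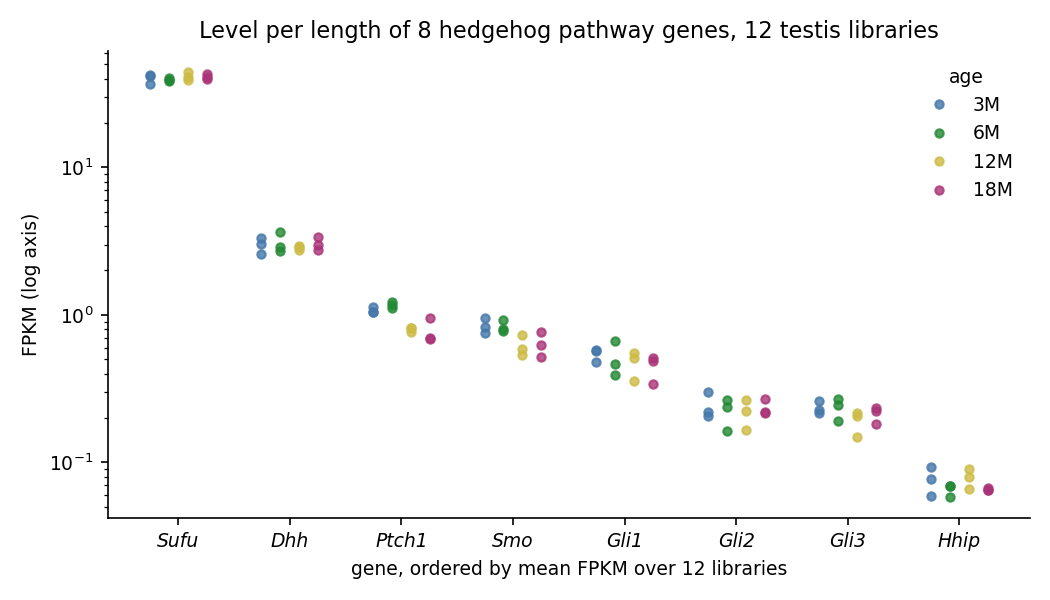
FPKM of each of the 8 genes in the 12 libraries (points, coloured by age) on a log axis, with genes ordered by their mean. Sufu lies near 40.5 FPKM and Hhip near 0.0718, Dhh stands apart from both neighbours, and Gli2 and Gli3 overlap.

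None of the 8 genes passed the test for a change with age. For the slope, age in months entered as a number, all 12 libraries were in 1 fit, and read counts were tested by edgeR (quasi-likelihood). The p-values were adjusted over all 18545 genes tested by the Benjamini-Hochberg method, with an adjusted p of 0.05 or less as the threshold. Of all genes tested, 76 (0.41%) passed. At an unadjusted p of 0.05 or less, 2 of the 8 genes, Ptch1 and Smo, had a slope, beside 17.5% of all genes. Both were lower with age, as were 9.23% of all genes at that p. The median slope of the 8 genes was -0.0089 log2 per month, with 6 of 8 below 0, against -0.00019 and 50.6% below 0 for all genes. DESeq2 called 1 of the 8, Ptch1, beside 576 of all 18545 genes, many more than edgeR. Limma on log2 FPKM called 0 of the 7 it tested, without Hhip. In the test for any difference among the 4 ages, edgeR called 0 of the 8 genes and 0.0917% of all genes, and the same 2 of the 8 (10.3% of all) were at an unadjusted p of 0.05 or less.

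Between single ages, edgeR called 0 of the 8 genes in each of the 4 comparisons made. From 3M to 18M, 12 of 18130 genes (0.0662%) were called, and 2 of the 8 were at an unadjusted p of 0.05 or less, beside 13.5% of all (7.25% lower at 18M). The 6 genes other than Ptch1 and Smo lay between -0.25 log2 (Gli1) and 0.053 log2 (Sufu) at 18M against 3M, with edgeR adjusted p from 0.569 to 0.964. Without the second 18M mouse, Gli1 was at -0.096 log2 (edgeR adjusted p = 0.867). From 6M to 12M, 0.0551% of all genes were called, and the same 2 of the 8 were at an unadjusted p of 0.05 or less, beside 8.48% of all (4.91% lower at 12M). From 3M to 6M, where 0.0497% of all genes were called, 0 of the 8 were at an unadjusted p of 0.05 or less, beside 4% of all. From 12M to 18M, where 0.0275% were called, 0 of the 8 were at that level either, beside 3.48% of all. DESeq2 called 1 of the 8 from 6M to 12M, beside 125 of all 18141 genes, and 0 in the other 3 comparisons. Limma, which again left out Hhip, called 0 of the others in each. These comparisons share libraries and are not independent of each other.

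Dhh, the ligand, differed between ages by less than the spread between mice. Its gene lies on the minus strand at chr15:98891155-98898540 (mm10) with 3 exons. In CPM, counts scaled to library size with TMM factors, Dhh was at 13.6, 14.8 and 11.6 in the 3M mice and at 12.3, 13.1 and 16.1 in the 6M mice. The 12M mice had 12.5, 13.3 and 13.3 CPM and the 18M mice 13.4, 15.4 and 12.5 CPM. Every age overlapped every other. The slope of Dhh was 0.00067 ± 0.0070 log2 per month (SE, n = 12, edgeR adjusted p = 0.973), which is 0.563% per 12 months with a 95% interval from -11.3% to 14.0%. From 3M to 18M its CPM differed 1.03-fold, with an interval from 0.851 to 1.25.

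The count of Dhh depends on how reads were divided with Rhebl1, the gene that follows it on the same strand and encodes a Rheb-like GTPase. The authors' assembly holds 4 Rhebl1 transcripts, and 3 of them, of class j, begin at the start of Dhh or within its first intron and share its exons. Of the reads on Dhh exons, between 10.7% and 27.9% (median 24.9%) were assigned to these Rhebl1 transcripts. The lowest shares were 12.4% in the second 3M mouse and 10.7% in the second 18M mouse, each the mouse of its age with the highest Dhh level in CPM. With all reads on Dhh exons counted as Dhh, a setting chosen after seeing the data, its level was 17.0 ± 1.24 CPM in the 3M mice, 17.9 ± 2.36 in the 6M mice, 17.6 ± 0.422 in the 12M mice and 17.4 ± 0.743 in the 18M mice (SD, n = 3). In that setting the slope of Dhh was 0.00079 ± 0.0054 log2 per month (SE, edgeR adjusted p = 0.958). GENCODE vM21 also annotates an antisense gene, Gm49442, over 1107 bases of Dhh exons, and without strand information its reads cannot be told apart from those of Dhh.

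The join between both genes is shown to make the shared exon visible. GENCODE transcript Rhebl1-206 joins base 98893843 of chromosome 15, inside the last exon of Dhh, to base 98881284. One of the 3 assembled transcripts, that with 9 exons, has the same junction. The 15 bases on either side are given from the GENCODE transcript on mm10, minus strand, with the Rhebl1 exon in capitals.
Rhebl1-206 junction: ggatgtgagccgcagAGTCCACCTCGGCCT

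**Figure D2:**
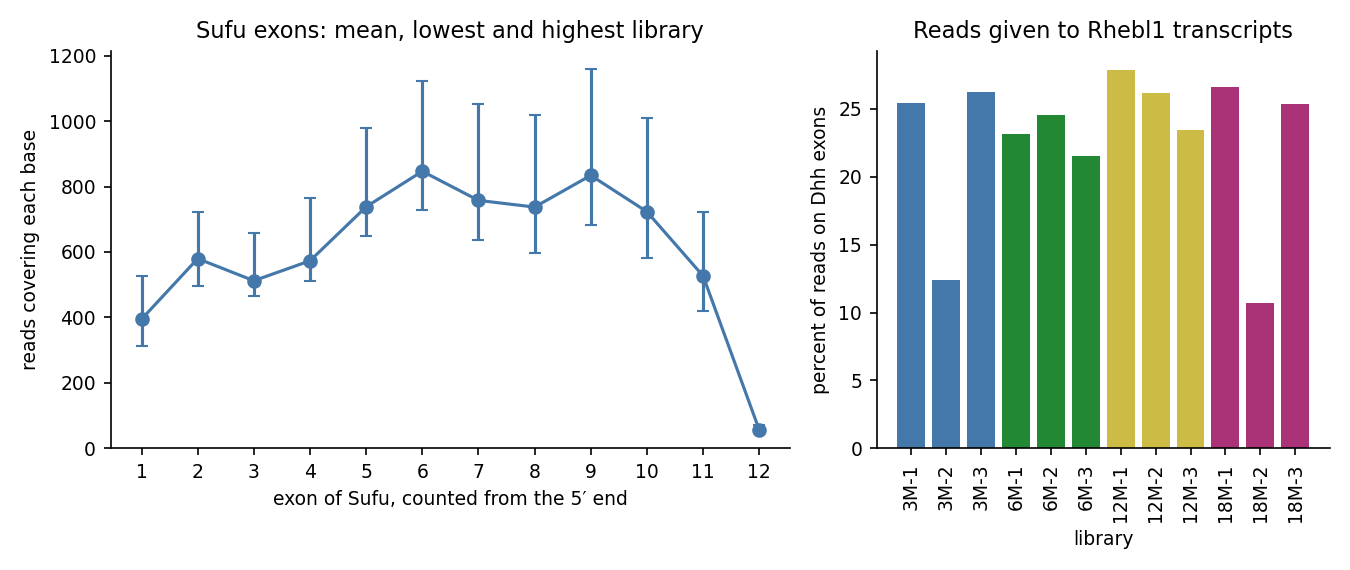
Left, reads covering each base of the 12 exons of Sufu, from the 5′ end (points, mean of 12 libraries; bars, lowest and highest library). The last exon is covered at 56.7 reads per base, against 395 to 847 in the other exons. Right, the share of reads on Dhh exons that was assigned to Rhebl1 transcripts in each library, which is lowest in 3M-2 (12.4%) and 18M-2 (10.7%).

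Ptch1, the receptor and a target gene of the pathway, had the smallest p of the 8 genes in the slope, in the test for any difference among ages, and in the comparisons from 3M to 18M and from 6M to 12M. Its gene lies at chr13:63508328-63565735, minus strand. It was at 8.87, 8.07 and 8.20 CPM in the 3M mice, and at 9.59, 8.72 and 8.89 CPM in the 6M mice. In the older mice it was at 6.05, 6.43 and 6.39 CPM at 12M, and at 7.46, 5.39 and 5.50 CPM at 18M. The 3M and 6M values overlapped, as did the 12M and 18M values, and the first 18M mouse was the highest of its age. The slope of Ptch1 was -0.039 ± 0.0086 log2 per month (SE, n = 12), or -27.5% per 12 months with a 95% interval from -37.85% to -15.4%, and did not pass the threshold (edgeR adjusted p = 0.0780, rank 131 of 18545 by p). Without the first 18M mouse, edgeR gave a slope of -0.049 log2 per month that passed it (adjusted p = 0.00964), and DESeq2 on all 12 libraries gave an adjusted p of 0.00221. Over 23 other settings, the sign held in 23, and the threshold was passed in 2 (adjusted p from 0.00221 to 0.242, by edgeR, DESeq2 or limma). These settings are not independent, since they reuse the same mice and 12 of them only leave out 1 library. The setting that adds reads to Dhh cannot move Ptch1.

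Between neighbouring ages, the Ptch1 difference with the smallest p was that from 6M to 12M. Its means were 9.07 ± 0.462 CPM at 6M and 6.29 ± 0.207 CPM at 12M (SD, n = 3), a difference of -0.53 ± 0.090 log2 (SE, edgeR adjusted p = 0.261, rank 29 of 18141 by p), or 0.692-fold with an interval from 0.599 to 0.800. DESeq2 gave an adjusted p of 0.00413 for it, and over 17 other settings of edgeR, DESeq2 and limma the adjusted p ran from there to 0.687. From 3M (8.38 ± 0.426 CPM) to 18M (6.12 ± 1.17 CPM) the difference was -0.45 ± 0.14 log2 (edgeR adjusted p = 0.299). The groups did not overlap in either comparison, which held for 16.4% of all genes from 6M to 12M and for 20.5% from 3M to 18M (lower with age, 7.97% and 10.8%). From 3M to 6M and from 12M to 18M, 0 of the 8 genes had groups without overlap, beside 9.5% and 8.83% of all. From 3M to 6M the difference was 0.11 ± 0.088 log2 (edgeR adjusted p = 0.988), and from 12M to 18M it was -0.042 ± 0.14 log2 (edgeR adjusted p = 0.9996).

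The reads of Ptch1, 282 to 512 per library, came almost all from 1 of its 2 transcripts, since the second held 2 reads in 1 library and 0 in the other 11. They lay toward the 3′ end: the last of 24 exons, 38.1% of the length, held 49.1% to 71.9% of the reads, and the first exon had 0 reads in 7 libraries. Relative to the exons between the ends, the last exon was covered at 180% ± 29.9 in the 3M mice, 218% ± 25.4 in the 6M mice, 252% ± 100.1 in the 12M mice and 289% ± 80.2 in the 18M mice (SD, n = 3). The 3M libraries (at most 202.2%) and the 18M libraries (238% to 381%) did not overlap in this ratio, and its part in the lower counts was not tested. From 3M to 18M the mean ratio was also higher in Dhh (74.4% to 86.1%) and Gli2 (78.8% to 127%). It was lower in Gli1 (117% to 112%), Gli3 (194% to 158%) and Sufu (8.65% to 7.89%). The ratio was not taken over all genes, so no share stands beside it.

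**Figure D3:**
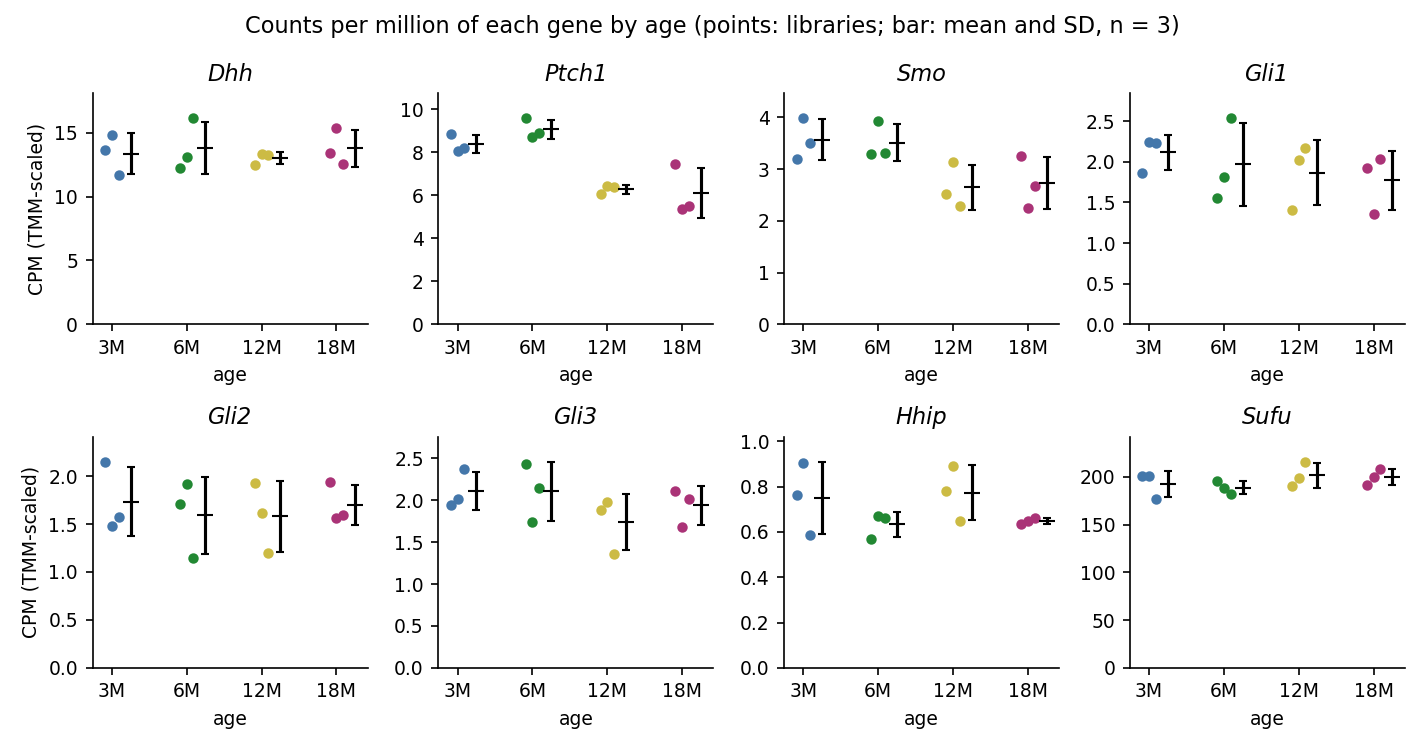
TMM-scaled CPM of each gene in each library (points) by age, with the mean and SD of the 3 mice beside them; every axis starts at 0. Ptch1 lies between 8.72 and 9.59 CPM at 6M and between 6.05 and 6.43 CPM at 12M, while Dhh covers 11.6 to 16.1 CPM with every age overlapping.

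Smo, the membrane protein that carries the signal inward, had the second smallest p in the slope. Its gene lies at chr6:29735497-29761366, plus strand. It was at 3.20, 3.98 and 3.51 CPM at 3M and at 3.301, 3.93 and 3.32 CPM at 6M. It was at 2.53, 3.13 and 2.30 CPM at 12M and at 3.26, 2.25 and 2.68 CPM at 18M, where the first mouse was within the range of the 3M mice. The slope of Smo was -0.030 ± 0.010 log2 per month (SE, n = 12, edgeR adjusted p = 0.174), or -22.3% per 12 months with an interval from -35.2% to -6.87%. From 3M to 18M the difference was -0.38 ± 0.16 log2 (edgeR adjusted p = 0.368) with overlapping groups. From 6M to 12M it was -0.41 ± 0.16 log2 (edgeR adjusted p = 0.564) with no overlap, which held for 16.4% of all genes (7.97% lower). Smo stayed short of the threshold under the other 23 settings of the slope, DESeq2 included (adjusted p = 0.0923).

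Smo was measured by 118 to 229 reads per library, and its coverage was described in the same way. Relative to the exons between, its last exon was covered at 91.7% ± 15.4 in the 3M mice, 136% ± 16.0 in the 6M mice, 177% ± 44.6 in the 12M mice and 155% ± 52.5 in the 18M mice (SD, n = 3). Each library of the 6M, 12M and 18M mice was above the 3M libraries in this ratio, while the level of Smo was 3.56 ± 0.396 CPM at 3M and 3.51 ± 0.356 CPM at 6M. The part of this ratio in the counts was not tested, and again no share over all genes stands beside it. Across the 12 libraries, log2 CPM of Ptch1 and Smo had a Pearson r of 0.789, the highest among the 28 pairs of the 8 genes. That is a description over libraries that share age and depth.

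Promoter sequences of 7 of the 8 genes, from 250 bases before to 50 after the start, were read from RefSeq on GRCm38.p6, the mm10 build, and Gli1 was not among them. The consensus bound by Gli proteins, GACCACCCA, was searched on both strands and was in none of the 7, beside 0.253% of all 32851 promoters of the same length. With any base at position 5, GACCNCCCA, which includes the first motif, it was again in none of the 7, beside 0.977% of all. The promoters of the ligand and of both membrane proteins of the pathway are shown, with CpG dinucleotides in capitals, since Ptch1 and Smo had the smallest p. The starts are those annotated by RefSeq. In the mean of 12 libraries, the first exon was covered at 10.4 (Dhh), 0.212 (Ptch1) and 0.639 (Smo) reads per base. The last exon of these genes was covered at 19.1, 9.08 and 6.22. The Dhh window (chr15:98898491-98898790, minus strand) holds 12 CpG, the Ptch1 window (chr13:63565686-63565985, minus strand) 47 and the Smo window (chr6:29735247-29735546, plus strand) 17, against a median of 7 over all promoters.
Dhh promoter: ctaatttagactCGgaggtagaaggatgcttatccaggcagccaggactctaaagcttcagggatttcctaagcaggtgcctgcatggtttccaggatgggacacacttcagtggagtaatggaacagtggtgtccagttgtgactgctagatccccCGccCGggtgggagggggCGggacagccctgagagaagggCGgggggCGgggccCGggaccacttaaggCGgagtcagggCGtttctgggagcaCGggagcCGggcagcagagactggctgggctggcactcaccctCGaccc
Ptch1 promoter: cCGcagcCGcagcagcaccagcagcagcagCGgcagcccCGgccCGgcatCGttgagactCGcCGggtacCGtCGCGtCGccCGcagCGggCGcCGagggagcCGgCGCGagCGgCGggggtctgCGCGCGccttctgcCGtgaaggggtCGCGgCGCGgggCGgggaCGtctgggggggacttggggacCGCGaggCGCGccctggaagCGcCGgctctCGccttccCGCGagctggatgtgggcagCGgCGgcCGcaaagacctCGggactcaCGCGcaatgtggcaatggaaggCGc
Smo promoter: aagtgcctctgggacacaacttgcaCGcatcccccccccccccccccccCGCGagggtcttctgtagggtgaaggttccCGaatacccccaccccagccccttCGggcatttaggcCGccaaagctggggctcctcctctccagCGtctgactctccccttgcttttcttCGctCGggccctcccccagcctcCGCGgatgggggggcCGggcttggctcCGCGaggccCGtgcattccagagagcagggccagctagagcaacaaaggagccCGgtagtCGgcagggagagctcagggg

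**Figure D4:**
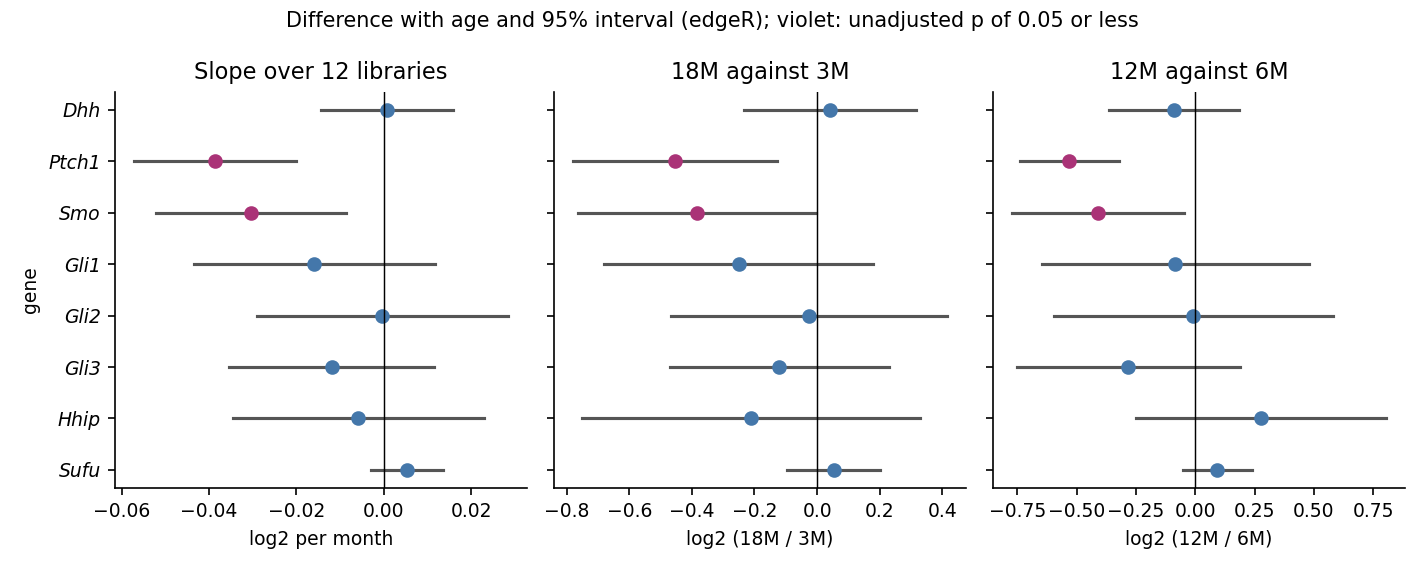
Slope on age (left), 18M against 3M (middle) and 12M against 6M (right) for each gene on a log2 scale, with 95% intervals from edgeR (lines). Violet points, Ptch1 and Smo, are at an unadjusted p of 0.05 or less, none of the 8 passed after adjustment, and the intervals of Dhh and Sufu are among the narrowest around 0.

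Gli1, the factor whose RNA most directly follows pathway activity, differed between ages by less than the spread between mice. Its gene lies at chr10:127329882-127341579, minus strand. It was at 1.87, 2.24 and 2.23 CPM at 3M and at 1.55, 1.81 and 2.53 CPM at 6M. It was at 1.41, 2.02 and 2.17 CPM at 12M and at 1.92, 1.36 and 2.03 CPM at 18M, with all ages overlapping. The slope of Gli1 was -0.016 ± 0.013 log2 per month (SE, n = 12, edgeR adjusted p = 0.543), or -12.4% per 12 months with an interval from -30.3% to 10.2%, which still holds the slope of Ptch1. Without the second 18M mouse the slope of Gli1 was -0.0075 log2 per month (edgeR adjusted p = 0.831). Gli1 had 71 to 146 reads per library. GENCODE places Arhgap9 over 62 bases and the antisense gene Gm47200 over 265 bases of Gli1 exons, and reads there cannot be assigned to either strand.

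Gli2 and Gli3, the factors that carry most of the activator and repressor function, were at 66 to 114 and 84 to 144 reads per library. They lie at chr1:118834061-119053619, minus strand, and chr13:15463723-15730025, plus strand. Gli2 lay between 1.15 and 2.15 CPM and Gli3 between 1.36 and 2.44 CPM, with all ages overlapping in both genes. The slope of Gli2 was -0.00033 ± 0.013 log2 per month (edgeR adjusted p = 0.993), with an interval from -21.5% to 26.7% per 12 months. The slope of Gli3 was -0.012 ± 0.011 log2 per month (edgeR adjusted p = 0.593), with an interval from -25.5% to 10% per 12 months. For Gli3 the last exon held 60.9% to 87.6% of the reads, and the first exon had 0 reads in 10 of the 12 libraries.

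Hhip, a membrane and secreted protein that binds hedgehog ligands, was the lowest of the 8 at 0.570 to 0.905 CPM, or 29 to 52 reads per library, from chr8:79965851-80058008, minus strand. Its slope was -0.0058 ± 0.013 log2 per month (edgeR adjusted p = 0.854), with an interval from -24.95% to 20.9% per 12 months. Its last exon, 6676 of 9078 bases, held 62.6% to 100% of the reads. Each of the 12 upstream exons had 0 reads in 7 to 11 libraries, so that the value rests mostly on reads of the last exon. A small RNA gene, Gm27820, overlaps 175 bases of that exon on the other strand.

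Sufu, the cytoplasmic inhibitor of the Gli proteins, was at 177 to 216 CPM, and its mean per age ranged from 189 ± 6.61 CPM at 6M to 201.7 ± 12.9 CPM at 12M (SD, n = 3). Its gene lies at chr19:46396896-46488804, plus strand. With 9554 to 14872 reads per library it was the most precisely measured of the 8. The slope of Sufu was 0.0053 ± 0.0038 log2 per month (SE, n = 12, edgeR adjusted p = 0.492), and its 95% interval ran from -2.41% to 11.9% per 12 months. The coverage of its exons was uneven. The last exon of the assembled transcript, 2950 of 4522 bases, was covered at 7.71% to 9.52% of the exons between the ends, at every age. GENCODE lists Sufu transcripts with the same exon start but a last exon of 194 bases (Sufu-202) or 128 bases (Sufu-206), while both Sufu transcripts of the table have the long one. The FPKM of Sufu divides its reads by the long form and so is a mean over unevenly covered exons.

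The assembly divided the Sufu reads between 2 RefSeq transcripts that differ by 3 bases at the start of exon 7. The form without them, NM_001025391, was given 63.4% to 70.5% of the reads (median 65.8%). The junction of exons 6 and 7 (chromosome 19, plus strand, last base of exon 6 at 46450963) is shown from the GENCODE transcripts of both forms, which begin exon 7 at 46453159 (Sufu-202) or 46453162 (Sufu-201). The 3 extra bases are in capitals.
Sufu-202 junction: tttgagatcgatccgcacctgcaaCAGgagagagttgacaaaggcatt
Sufu-201 junction: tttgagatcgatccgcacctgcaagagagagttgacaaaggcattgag

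None of the other listed pathway genes was called in the slope. Of 14 genes for other ligands and for release and uptake of ligand, 13 were tested, and edgeR called 0 in the slope. At an unadjusted p of 0.05 or less there were 0, beside 17.5% of all genes. Among the ligands per length, Ihh was at 0.149 FPKM and Shh at 0.00714 FPKM, with Shh at 0 to 0.139 CPM, so that Dhh, whose lowest library was at 2.57 FPKM, was above Ihh in every library (highest, 0.223 FPKM). Boc, a co-receptor, was at 2.76 FPKM on average and Cdon and Gas1, of the same function, at 0.634 and 0.463 FPKM.

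Of 19 genes between Smo and the Gli factors, edgeR called 0 in the slope. At an unadjusted p of 0.05 or less there were 4, 3 lower and 1 higher, beside 17.5% of all genes (9.23% lower). Evc2, a ciliary partner of Smo, was at 2.63 ± 0.392 CPM at 3M and 1.997 ± 0.112 CPM at 18M (SD, n = 3), with a slope of -0.029 ± 0.0084 log2 per month (edgeR adjusted p = 0.135). Spop, an adaptor for degradation of Gli2 and Gli3, had a slope of -0.015 ± 0.0049 (edgeR adjusted p = 0.171). Gsk3b, a kinase that phosphorylates Gli proteins, had a slope of 0.013 ± 0.0049 (edgeR adjusted p = 0.202).

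Of 10 genes reported as Gli targets, 9 were tested, and edgeR called 0 in the slope. At an unadjusted p of 0.05 or less, 3 were lower, beside 9.23% of all genes. Ccnd2, which encodes cyclin D2, was at 3.20 ± 0.348 CPM in the 3M mice, 3.63 ± 0.430 in the 6M mice, 2.41 ± 0.195 in the 12M mice and 2.17 ± 0.326 in the 18M mice. Its slope was -0.048 ± 0.010 log2 per month (edgeR adjusted p = 0.0742). Cdk6, a cyclin D kinase, had a slope of -0.017 ± 0.0050 (edgeR adjusted p = 0.135), and Igfbp6, an IGF-binding protein, one of -0.020 ± 0.0075 (edgeR adjusted p = 0.211). From 3M to 18M, edgeR called 0 genes of each of these 3 lists. At an unadjusted p of 0.05 or less there were 0, 2 and 3, all lower, beside 13.5% of all genes (7.25% lower). The 6 genes named between Smo and the Gli factors and among the targets were taken for having the smallest p in the slope, so that their values are a description.

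Markers of the cells that send and receive the signal were counted beside the 8 genes. Of all 18545 genes tested in the slope, 76 (0.41%) were called, 58 of them lower with age. For Sertoli cells, the source of Dhh, 0 of 13 markers were called in the slope, and their summed level was 1192 to 1250 CPM at 3M and 1207 to 1262 CPM at 18M, with Clu the highest at 727 CPM. For Leydig cells, 3 of 9 markers fell, the steroidogenic enzymes Cyp11a1 and Cyp17a1 and the luteinizing hormone receptor Lhcgr (slopes of -0.11, -0.097 and -0.095 log2 per month, edgeR adjusted p = 0.00188, 2.83e-05 and 0.0335), with a summed level of 913 to 1080 CPM at 3M and 585 to 798 CPM at 18M. At an unadjusted p of 0.05 or less, 8 of the 9 Leydig and 5 of the 7 stromal markers were lower with age, beside 9.23% of all genes. The same held for 2 of 6 endothelial and 2 of 7 macrophage markers, and for 0 of the Sertoli and 0 of the peritubular myoid markers. The slopes of the remaining Leydig and stromal markers were above 0. Insl3, the highest of the Leydig list at 526 CPM, had a slope of -0.032 ± 0.013 log2 per month (edgeR adjusted p = 0.241). For stromal cells, 3 of 7 markers fell, the collagens Col1a1, Col1a2 and Col3a1 (slopes of -0.066, -0.075 and -0.068, edgeR adjusted p = 0.0476, 0.00647 and 0.0251), and the summed level was 55.1 to 81.6 CPM at 3M and 36.5 to 50.4 CPM at 18M, with Dcn the highest at 17.8 CPM. For peritubular myoid cells, 0 of 6 were called, with sums of 111 to 125 CPM at 3M and 90.9 to 115 CPM at 18M and Myl9 the highest. Between single ages, edgeR called 1 Leydig and 0 stromal markers from 3M to 18M, and 2 and 0 from 6M to 12M, all lower at the later age. The third 6M mouse was the highest of all for Leydig (1363 CPM) and Sertoli (1544 CPM) markers. The part of these marker levels in the values of Ptch1 and Smo was not tested.

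**Figure D5:**
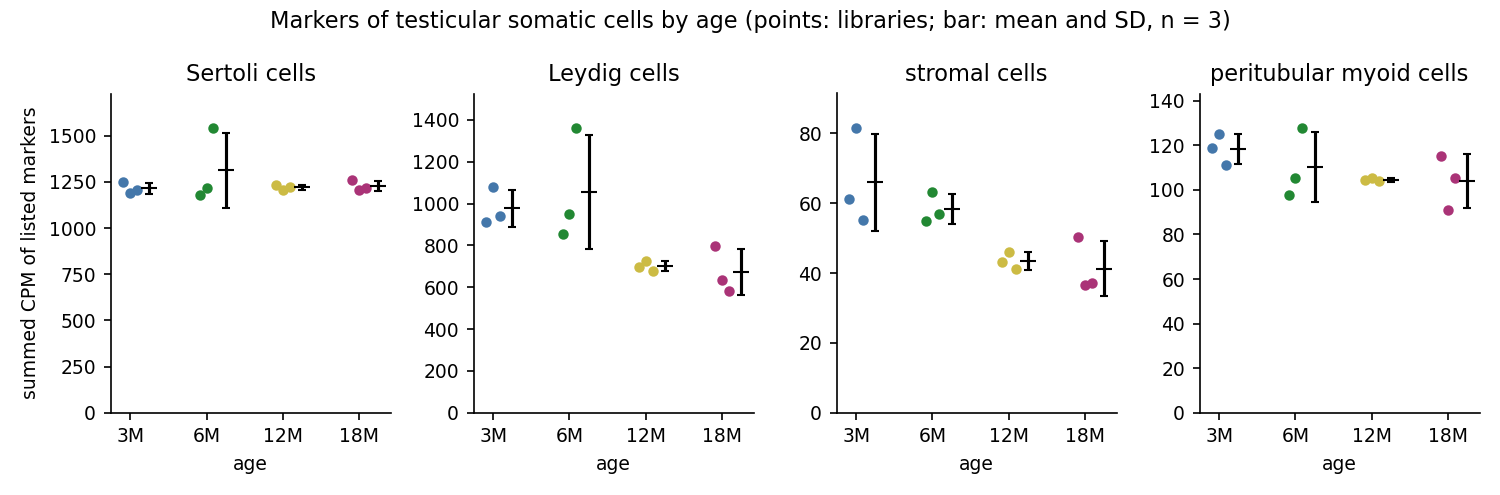
Summed TMM-scaled CPM of the listed markers of 4 somatic cell types in each library (points) by age, with the mean and SD of 3 mice. Leydig cell markers lie at 913 to 1080 CPM at 3M and 585 to 798 CPM at 18M, while Sertoli cell markers lie at 1192 to 1250 CPM and 1207 to 1262 CPM.

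In the slope, 0 genes were called in the other marker lists, those of endothelial cells (6 tested, Vwf the highest), macrophages (7, Mrc1), Schwann and nerve cells (6), red blood cells (4, Alas2), spermatogonia (7, Uchl1), spermatocytes (6, Piwil1) and spermatids (7, Prm2). At an unadjusted p of 0.05 or less, where edgeR placed 17.5% of all genes, 2 endothelial and 2 macrophage genes were lower with age. There, 1 Schwann and nerve, 1 spermatocyte and 3 spermatid genes were higher. Of 2 spermatogonial genes, 1 was higher and 1 lower, and 0 red blood cell genes were at that level. Germ cell markers were at high levels, with Prm2 at 5515 CPM and Piwil1 at 478 CPM. The epididymis markers summed to at most 0.577 CPM, with 3 of 7 at 0 in every library, 2 tested and 0 called, and Defb41 the highest at 0.183 CPM.

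By Pearson r of log2(CPM + 0.5) over the 12 libraries, the genes most like Dhh among 15336 with a mean of 1 CPM or more were Tshz1 (0.892), a zinc finger transcription factor, Ccdc160 (0.890), Ndrg1 (0.859) and Ccdc43 (0.853). Those most like Gli1 were Spry4 (0.882), an inhibitor of receptor tyrosine kinase signalling, Efhd2 (0.870), Jam3 (0.866), a junctional adhesion molecule, and Wrap73 (0.858). None of the 8 genes themselves was on either list, and Hhip, with a mean of 0.701 CPM, was not among the genes compared. These are the highest of many values, over libraries that share age and depth, and are given as a description.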

How the data were processed

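Total RNA of 12 testes was sequenced in paired ends without strand. Alignment (HISAT2, mm10) and transcript assembly (StringTie, 1.3.3b in the file headers) were done by the authors, who deposited an estimated count and an FPKM per transcript and library, 71967 transcripts in all. Each deposited count equals the transcript's mean coverage multiplied by its length, divided by the read length and rounded up. Both reads of a pair add to it, so that the read numbers given here are not numbers of independent fragments. The deposited FPKM values are scaled to transcript length and library depth by the authors, with no further factor such as TMM. Coverage per exon, another deposited value, was read from the assembly of each library.

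Counts were summed per gene symbol over class codes =, c, j and o, which held 94.3% to 95.0% of reads, and 20 symbols lay on more than 1 chromosome. The library size was the sum of all deposited counts. The test was the quasi-likelihood F-test of edgeR 4.0.16 (R 4.3.3) with TMM factors, filterByExpr and Benjamini-Hochberg adjustment over all genes tested. The slope and the test among ages used 12 libraries, and comparisons of 2 ages used only theirs. Labels do not say whether mice were littermates, so p-values measure the spread between these mice. On simulated counts with 200 genes changed 2-fold, edgeR called 73% of them in the slope (18398 genes, 15 false calls). From 3M to 18M it called 79% (17986 genes, 10 false calls). Of 1.5-fold changes it called 33% in the slope and 35.5% from 3M to 18M. These shares were not split by read count and need not hold for genes with as few reads as Hhip, Gli1, Gli2 and Gli3.

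The 8 genes, the pathway and marker lists, the tests and the alternatives were chosen with earlier results of these data known. Named were the 8 genes, the 6 genes of the other pathway lists with the smallest p in the slope (none was called), the 4 genes most like Dhh and Gli1, and the highest gene of each marker list, except 1 that is not reported here. Called markers, Insl3, and the ligands and co-receptors were named after their values were seen. Grk2 is listed as Adrbk1 in the table, and Hbb-bt was not matched. Alternatives were scaling by library size alone or by DESeq2 size factors, DESeq2 1.42.0 itself, no filter, the mouse number as a block, class code = alone or all class codes, log2 of age, CPM for the order of levels, limma 3.58.1 on log2(FPKM + 0.1) or log2(FPKM + 1) with a mean above 0.1 FPKM, all 12 libraries in the pairwise fits, unadjusted p-values, and leaving out single libraries. Exon overlaps were taken from GENCODE vM21 on mm10, and figures were drawn with matplotlib 3.10.9.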

Additional observations from a re-analysis of the deposited data

How the results depend on the processing

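Under each alternative run, 0 of the 8 genes passed the threshold except in the settings given here. DESeq2 called 1, Ptch1, in the slope, among ages and from 6M to 12M, and an unadjusted p of 0.05 or less gave 2 of 8 in the slope, among ages, from 3M to 18M and from 6M to 12M. Leaving out 1 library gave 0 to 1 of 8 in the slope and among ages, with 1, Ptch1, without the first 18M mouse, and 0 in the 4 pairwise comparisons.

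Counts over all genes moved more. For the slope, the test among ages, 3M against 18M, 3M against 6M, 6M against 12M and 12M against 18M, in this order, unadjusted p-values gave 3244, 1913, 2452, 725, 1539 and 632 genes and DESeq2 576, 395, 255, 66, 125 and 38. In the slope, edgeR without a filter called 47, class code = alone 11, and limma 40 with either pseudocount. Class code = alone gave 7 among ages, 19 from 3M to 18M, and 0 from 3M to 6M. For that last comparison it gave 728 at an unadjusted p of 0.05 or less in edgeR. DESeq2, run on class codes =, c, j and o, called 66 there. Limma called 5 from 3M to 6M with either pseudocount and 4 from 6M to 12M with log2(FPKM + 1). With all 12 libraries in the fit, edgeR called 22 from 3M to 18M, 3 from 3M to 6M, 3 from 6M to 12M and 0 from 12M to 18M (701 at an unadjusted p of 0.05 or less, 38 by DESeq2 on the pair). Leaving out 1 library gave 18 (without the third 18M mouse) to 192 (without the first) in the slope, 8 to 47 among ages, 14 to 25 from 3M to 18M, 11 to 30 from 3M to 6M, 5 to 21 from 6M to 12M and 5 to 19 from 12M to 18M.

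The labels do not say that mouse numbers pair the samples. Deviations from the age means of same-numbered mice had r from -0.0595 to 0.160 over 18 pairs, with 1 over 0.1. For mice of different number, r ran from -0.161 to 0.0938 over 36 pairs, with 0 over 0.1. Such values cannot exclude shared processing, since it need not act on most genes. With the replicate block, edgeR called 0 of the 8 genes, and 42 of all genes in the slope, 9 among ages, 7 from 3M to 18M, 7 from 3M to 6M, 3 from 6M to 12M and 4 from 12M to 18M.

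Slopes near 0 changed sign. Dhh was at -0.00057 log2 per month with library size alone, -0.00042 and -0.00040 in limma, and -0.0049 to 0.00376 with 1 library left out. Gli2 was at 7.8e-06 without a filter, 0.00025 with the replicate block, 0.00025 with class code = alone, and -0.00721 to 0.00875 with 1 library left out, and Hhip at -0.0116 to 0.00235. With 1 library left out, the slope was -0.0225 to -0.0075 for Gli1 (nearest 0 without the second 18M mouse), -0.0176 to -0.00798 for Gli3 and 0.00291 (without the third 3M mouse) to 0.00748 for Sufu. Hhip, Gli1, Gli2 and Gli3 had 29 to 146 reads per library; counting error and spread between mice were not separated.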
